A study of Mus musculus with 4 samples.

Results

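Kruppel-like factors are zinc-finger transcription factors, and 9 of their genes were followed across the series: Klf2, Klf3, Klf4, Klf5, Klf6, Klf7, Klf9, Klf10 and Klf13. Every non-control spot whose gene name in the array files was one of these symbols was taken, which gave 16 probes of the 41174 on the array. Klf4 and Klf10 have 1 probe each and the other 7 genes have 2, with 1 spot per probe on each array. All 16 probes passed the filter on dim probes, which left 31114 probes and 21411 genes for testing. Probes of a gene are given separately, since those of Klf2 disagree.

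RNA came from ZHBTc4 cells, 1 line of mouse embryonic stem cells whose Oct4 (Pou5f1) is supplied by a transgene that doxycycline (dox) silences. The cells had been moved from irradiated embryonic fibroblasts to gelatin for 2 passages, and the study's title concerns LSD1 (Kdm1a), a histone demethylase, at enhancers during differentiation. Cells of the dox+TCP group received 2 µg dox for 48 h with TCP, an abbreviation the labels do not spell out. Cells of the dox group, titled controls in the labels, received the same dox without TCP. Each group has 2 biological replicates, and each replicate was hybridised in Cy5 on a 2-colour Agilent array against ZHBTc4 RNA in Cy3 for which no treatment is named, called the reference here. The Cy5 and Cy3 dyes were never swapped, so a dye bias of a probe and a difference from the reference cannot be told apart, while such a bias is shared by both treated groups.

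Kruppel-like factors bind CACCC and related GC-rich elements through zinc fingers near the carboxyl end, while the rest of the protein differs between members and recruits coactivators or corepressors. In mouse embryonic stem cells Klf2, Klf4 and Klf5 help to maintain self-renewal, Klf4 as a target of the LIF and Stat3 pathway and Klf2 as a gene downstream of Oct4, and Klf4 is part of the factor mix that reprograms fibroblasts. Other members are known from other settings: Klf6 and Klf10 as rapidly induced genes, Klf10 in the TGF-beta response, Klf3 as a repressor that binds CtBP proteins, Klf9 as a gene induced by glucocorticoid and thyroid hormone, and Klf7 in neurons.

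The sequences upstream of 4 members are shown because probes of these genes carry the falls (Klf2, Klf4) and the rises (Klf6, Klf9) described here. They are the 250 bases before the annotated start of each gene, 5′ to 3′ on the gene's strand, from RefSeq on GRCm38.p6. Capitals mark CACCC, or GGGTG on the other strand, the core of the element that the family binds. The windows lie at chr8:72318812-72319061 (+) for Klf2, chr4:55532476-55532725 (-) for Klf4, chr13:5861239-5861488 (+) for Klf6 and chr19:23140976-23141225 (+) for Klf9.
Klf2: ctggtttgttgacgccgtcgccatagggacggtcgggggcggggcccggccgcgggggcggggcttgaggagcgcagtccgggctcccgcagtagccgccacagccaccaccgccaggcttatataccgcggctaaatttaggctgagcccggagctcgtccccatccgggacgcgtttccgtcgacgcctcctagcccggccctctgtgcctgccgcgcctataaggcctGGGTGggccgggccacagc
Klf4: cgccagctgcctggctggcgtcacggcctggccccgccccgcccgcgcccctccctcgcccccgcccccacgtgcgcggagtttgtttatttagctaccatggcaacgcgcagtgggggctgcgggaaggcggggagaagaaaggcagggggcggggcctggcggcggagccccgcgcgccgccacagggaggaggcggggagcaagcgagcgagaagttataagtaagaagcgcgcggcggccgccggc
Klf6: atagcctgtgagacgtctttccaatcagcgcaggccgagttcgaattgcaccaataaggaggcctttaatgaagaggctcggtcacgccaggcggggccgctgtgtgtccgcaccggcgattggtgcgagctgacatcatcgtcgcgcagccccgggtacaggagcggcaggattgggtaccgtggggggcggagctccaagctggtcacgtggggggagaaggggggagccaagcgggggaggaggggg
Klf9: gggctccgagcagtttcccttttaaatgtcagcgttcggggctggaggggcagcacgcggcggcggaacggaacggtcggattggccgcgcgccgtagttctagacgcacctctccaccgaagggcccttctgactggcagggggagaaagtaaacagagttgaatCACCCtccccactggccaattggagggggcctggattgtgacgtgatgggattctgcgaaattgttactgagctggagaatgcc
Klf2 has 1 such match, beginning at position -19 from the start, Klf9 has 1 at position -84, and the windows of Klf4 and Klf6 have 0. Among the other members in the RefSeq table, Klf3 has 5 matches, Klf7 has 3 and Klf13 has 1, so 5 of the 7 matched members hold at least 1, against 52% of 32851 promoter windows of this length. GGGCGG, searched on both strands, occurs 4 times upstream of Klf4, 2 times upstream of Klf2, 1 time upstream of Klf6 and 0 times upstream of Klf9, and is present in 32.7% of all windows. The octamer ATGCAAAT of Oct4-type factors was in 0 of the 7 windows and in 1.6% of all windows. TTCNNNGAA, the element of STAT factors, was found 1 time upstream of Klf9 and in no other matched member, against 7.02% of all windows. These are letter matches in a short window only.

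On each array 68.8% to 78.1% of spots were well above background per channel, and 0 non-control spots were saturated. Log2 ratios of Cy5 over Cy3 correlated at 0.834 between the dox+TCP arrays and 0.630 between the dox arrays over tested probes, while the replicate 1 arrays of both groups, which lie on the same slide, correlated at 0.862. The reference RNA of the replicate 2 arrays stands apart: 12 trophoblast genes fixed as a list summed to a Cy3 signal of 394910 on dox+TCP replicate 2 and 424920 on dox replicate 2, against 67650 and 57534 on the replicate 1 arrays of the same groups. The keratins Krt8 and Krt18 carry most of these sums, and the other 10 genes summed to 30668 on dox+TCP replicate 2 and 42401 on dox replicate 2, against 18898 on dox+TCP replicate 1 and 19615 on dox replicate 1. Log2 Cy3 signals correlated at 0.997 between the replicate 1 arrays, 0.982 between the replicate 2 arrays, 0.971 between the dox+TCP arrays and 0.983 between the dox arrays. The replicate 2 arrays thus correlated no better than the dox arrays, and the replicate 1 arrays share a slide. The reference's part in the ratios of the Kruppel-like factors was not tested. In the treated channel the 12 trophoblast genes summed to 571640 and 513290 with dox+TCP, and to 866840 and 729080 with dox. Pou5f1, the gene shut off by dox, had log2 ratios of -3.42 and -3.43 on the dox+TCP arrays and -3.44 and -3.52 on the dox arrays, so its transcript was low in every treated sample. The 12 fibroblast markers of feeder cells summed to 32586 to 34837 in dox+TCP cells, 31266 and 31647 in dox cells and 34249 to 42638 in the reference. Acta2 carries most of these sums, and the other 11 summed to 13308 and 4087 in dox+TCP cells and 6772 and 4273 in dox cells, against 17125 and 5035 in the reference of the dox+TCP arrays and 17404 and 6598 in that of the dox arrays, lower on each replicate 2 array. The collagen gene Col1a1 read 3645 and 422 in the reference of dox+TCP replicates 1 and 2, and 3641 and 505 in that of dox replicates 1 and 2. Between 10 and 12 of the 12 were well above background per array and channel, and their part in the results was not tested. The 12 pluripotency genes listed with Klf2, Klf4 and Klf5 summed to 104060 and 75108 in dox+TCP cells, 76067 and 75312 in dox cells and 276750 to 358670 in the reference, and all 12 were well above background in every channel. Zfp42 and Fbxo15 were the brightest of them in the reference, with log2 signals of 17.2 and 16.0 on dox replicate 1, so they weigh most in its sums. On the replicate 1 arrays Fbxo15 had log2 ratios of -0.64 with dox+TCP and -1.75 with dox.

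**Figure D1:**
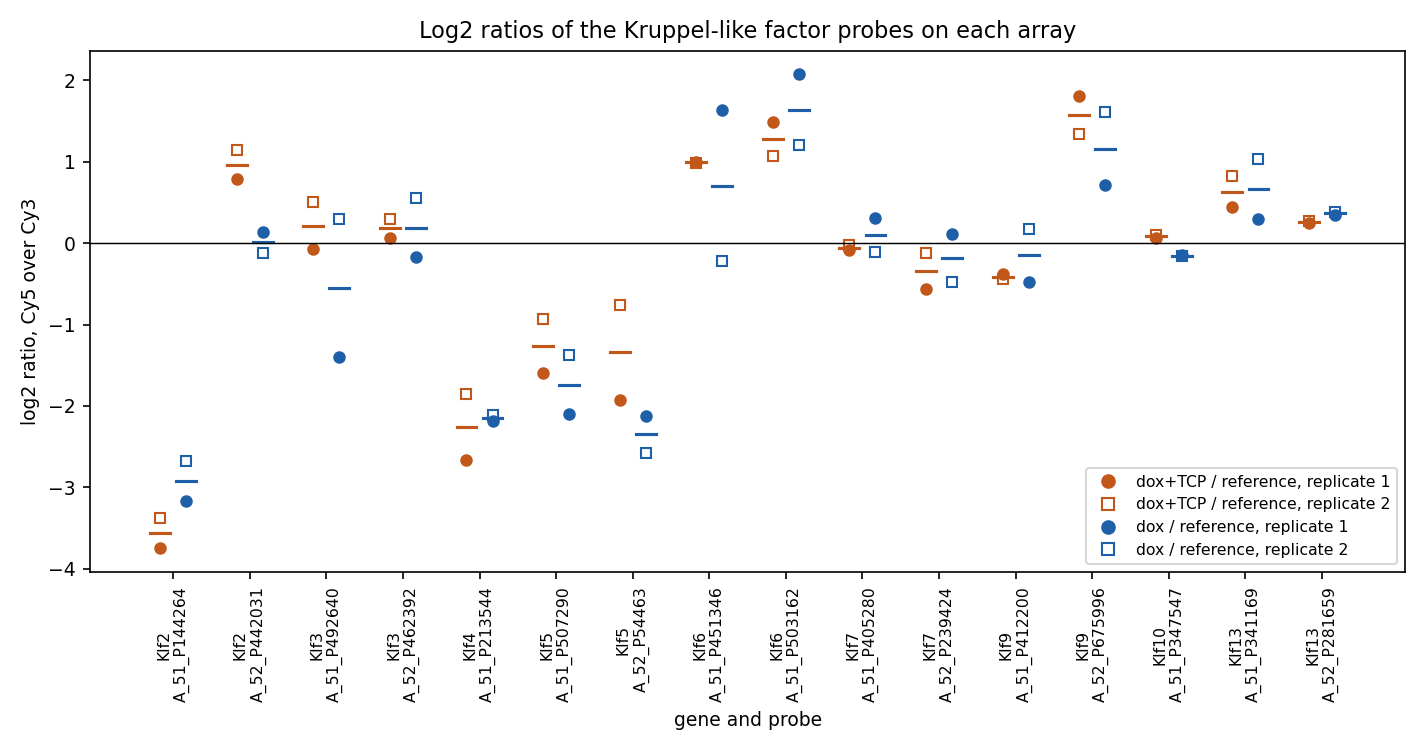
Log2 ratio of Cy5 (treated cells) over Cy3 (reference) for each Kruppel-like factor probe on each array; circles are replicate 1, squares are replicate 2, and horizontal bars are group means. Klf4, Klf5 and a single probe of Klf2 lie below 0 on all 4 arrays. The dimmer probes of Klf6 and Klf9 and both probes of Klf13 lie above 0 on all 4. The other probe of Klf2 lies near 0 with dox and above it with dox+TCP.

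The first question was which Kruppel-like factors differed from the reference after Oct4 was shut off, with TCP and without it. Klf4, the brighter probe of Klf5 and the dimmer probe of Klf2 fell with dox+TCP and with dox. The dimmer probe of Klf6 rose with both. The brighter probe of Klf2 and the dimmer probe of Klf9 passed the test with dox+TCP alone, and the dim probe of Klf5 with dox alone. Passing in a single group does not show a difference between the groups, and 0 of the 16 probes passed in dox+TCP against dox. Each group mean was tested against 0 with limma over all tested probes, at a Benjamini-Hochberg adjusted p of 0.05. With dox+TCP, 6 of the 16 probes passed, 3 higher and 3 lower, in 5 genes; over all probes 14.7% passed, 7.14% higher and 7.51% lower. With dox, 5 of the 16 passed, 1 higher and 4 lower, in 4 genes, where 14.8% of all probes passed, 7.81% higher and 6.98% lower. The median log2 ratio of the 16 probes was 0.13 with dox+TCP and -0.071 with dox, against 0.093 with dox+TCP and 0.085 with dox over all probes. Both comparisons use the same kind of reference RNA, so their lists are not independent. Without dox+TCP replicate 1 the limma fit called 0 probes for dox+TCP (4915 at an unadjusted p under 0.05, 5 of them Kruppel-like factor probes), and without dox+TCP replicate 2 it called 311, among them 2 of the 16. When centred on the median in place of the dye normalization, 76.9% of dox+TCP calls and 81.4% of dox calls were higher, against 48.7% of dox+TCP calls and 52.8% of dox calls as reported. Dox+TCP replicate 2 was the only array scanned on another day, so scan day and that array cannot be told apart.

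Klf4, a zinc-finger activator of the self-renewal network and of epithelial genes, was low in treated cells on every array. Its probe, at chr4:55541780-55541839 on the minus strand of mm7, the build of all probe positions here, had log2 ratios of -2.67 and -1.85 with dox+TCP, and -2.19 and -2.12 with dox. The Cy5 signals were 4220 and 4699 on the dox+TCP arrays against Cy3 signals of 26875 and 16931 for the reference. On the dox arrays they were 5649 and 5326 against 25699 and 23111 for the reference. Treated cells were therefore below the reference on all 4 arrays, and the spread of the ratios with dox+TCP lay mostly in the lower reference signal of replicate 2. The dox+TCP mean was -2.26 ± 0.24 (SE, n = 2), 4.79-fold lower than the reference (limma adjusted p = 0.0121), and the dox mean was -2.15 ± 0.24 (SE, n = 2), 4.44-fold lower (limma adjusted p = 0.0120). In RNA from a whole culture, fewer cells expressing a gene and less RNA per cell cannot be told apart.

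Klf5, which acts in self-renewal and is also needed in trophoblast, was lower than the reference at both of its probes. The brighter probe, whose match spans chr14:93704580-93714312 (+), had log2 ratios of -1.60 and -0.94 with dox+TCP, and -2.10 and -1.38 with dox. Its Cy5 signals were 8514 and 6897 with dox+TCP against 25760 and 13198 in the reference, and 5973 and 7808 with dox against 25639 and 20270 in the reference. The 4 ratios are all negative and the groups overlap. Means were -1.27 ± 0.27 with dox+TCP (SE, n = 2, limma adjusted p = 0.0426) and -1.74 ± 0.27 with dox (SE, n = 2, limma adjusted p = 0.0215). The dim second probe, at chr14:93706061-93706120 (+), read -1.93 and -0.76 with dox+TCP, and -2.12 and -2.58 with dox. There the Cy5 signals were 71 and 109 with dox+TCP and 64 and 30 with dox, and the spot of dox replicate 2 was not well above background, so 1 of 2 dox arrays measured it in the treated cells. Its dox mean of -2.35 ± 0.32 passed (SE, n = 2, limma adjusted p = 0.0171), and its dox+TCP mean of -1.34 ± 0.32 did not (SE, n = 2, limma adjusted p = 0.0558). Without dox replicate 1 the brighter probe read -1.38 for dox (limma adjusted p = 0.0507), and without dox replicate 2 the dim probe read -2.12 (limma adjusted p = 0.0720). The size of the dim probe's dox value depends on the background step: it was -1.17 with no background subtraction (limma adjusted p = 0.0411), -0.99 with normexp and median centring (limma adjusted p = 0.0195) and -0.41 with backgrounds as read, where it did not pass. The dox+TCP call of the brighter probe was lost in 9 of 18 alternatives, with values of -0.86 to -1.60 over the 18 and limma adjusted p-values up to 0.354.

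Klf2, a factor also known from blood vessels and lymphocytes, supports self-renewal in mouse embryonic stem cells. It gave different answers at its 2 probes, with opposite signs on both dox+TCP arrays and on dox replicate 1, where the brighter probe read 0.14. Probe A_51_P144264, the downstream one at chr8:70844133-70844192 (+), had log2 ratios of -3.75 and -3.38 with dox+TCP, and -3.17 and -2.67 with dox. The Cy5 signal was 4828 and 5072 with dox+TCP against 65022 and 52971 in the reference, and 7325 and 8765 with dox against 65802 and 55903 in the reference. Every ratio lies far below 0, and both dox+TCP ratios lie below both dox ratios. The dox+TCP mean was -3.57 ± 0.21 (SE, n = 2), 11.9-fold lower than the reference (limma adjusted p = 0.0066), and the dox mean was -2.92 ± 0.21 (SE, n = 2), 7.57-fold lower (limma adjusted p = 0.0065).

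Probe A_52_P442031 of Klf2, the brighter of the pair at chr8:70842757-70842816 (+), read 0.79 and 1.14 with dox+TCP, and 0.14 and -0.12 with dox. Its Cy5 signals were 81370 and 141010 with dox+TCP against 47020 and 64002 in the reference, and 62755 and 86263 with dox against 57033 and 93835 in the reference. The dox+TCP ratios are both above the dox ratios, and the dox ratios lie on either side of 0. With dox+TCP the mean of 0.97 ± 0.18 (SE, n = 2) was 1.95-fold higher than the reference (limma adjusted p = 0.0333), and with dox it was 0.0083 ± 0.18 (SE, n = 2, limma adjusted p = 0.979). With a single dox+TCP array in the fit the value was 1.14 without replicate 1 (limma adjusted p = 0.220, in a fit that called 0 probes in all) and 0.79 without replicate 2 (limma adjusted p = 0.383), so the call was lost. Under median centring without loess the same probe read 0.78 with dox (limma adjusted p = 0.0293) and 1.70 with dox+TCP, so its dox value depends on the dye normalization.

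**Figure D2:**
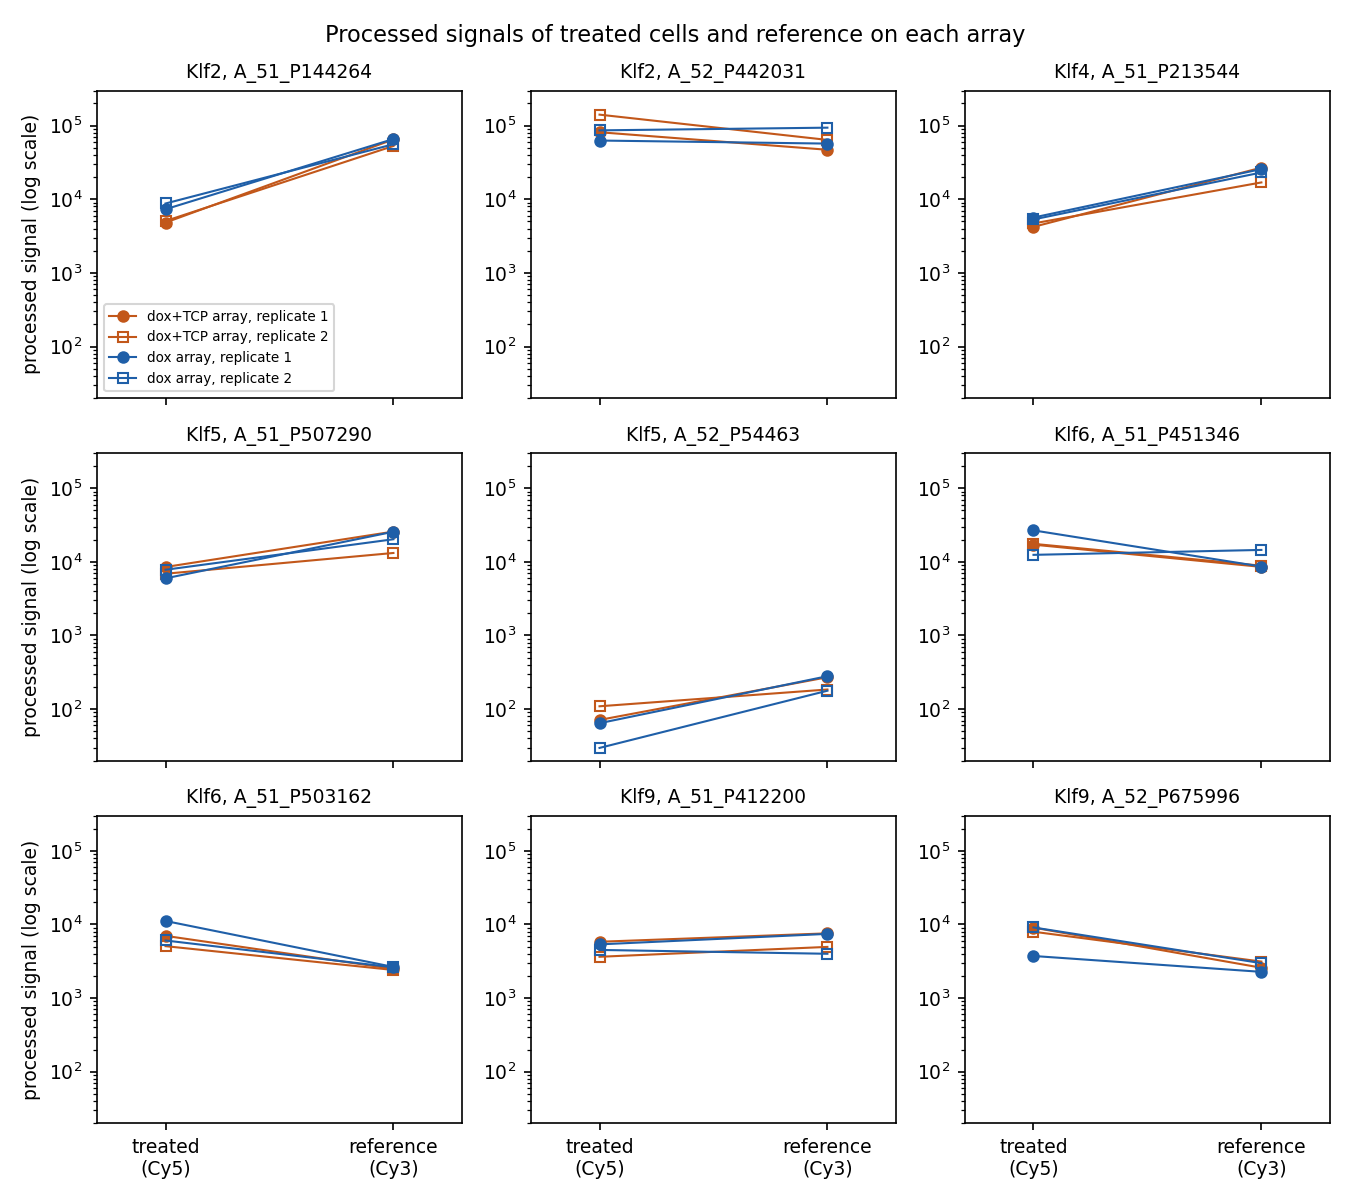
Processed signal (log scale) of treated cells (Cy5, left) and reference (Cy3, right) for 9 probes of Klf2, Klf4, Klf5, Klf6 and Klf9, with a line joining the channels of each array. For Klf2 A_51_P144264, Klf4 and Klf5 the lines climb toward the reference on all 4 arrays, while for Klf2 A_52_P442031 the reference is as bright as the treated cells with dox.

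The plot of both channels shows that the falls of Klf4 and of the downstream Klf2 probe come from low treated signal against a bright reference. At the downstream Klf2 probe the reference signal ranged from 52971 to 65802 over the 4 arrays. At the other Klf2 probe the reference ranged from 47020 to 93835.

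Klf6, an activator induced early by growth signals and injury, had a probe that rose with both treatments. Probe A_51_P503162, the dimmer of the pair at chr13:5752473-5752532 (+), had log2 ratios of 1.49 and 1.07 with dox+TCP, and 2.07 and 1.21 with dox. The Cy5 signals of 6990 and 5066 with dox+TCP stood against 2488 and 2405 in the reference, and those of 11130 and 6049 with dox against 2643 and 2614. The reference hardly varied between arrays, and all 4 treated signals lie above it. Means were 1.28 ± 0.26 with dox+TCP (SE, n = 2), 2.43-fold higher (limma adjusted p = 0.0404), and 1.64 ± 0.26 with dox (SE, n = 2), 3.12-fold higher (limma adjusted p = 0.0234). The dox+TCP call was lost in 8 of 17 alternatives: the value was 1.26 with normexp and loess (limma adjusted p = 0.0580), 1.07 without dox+TCP replicate 1 (limma adjusted p = 0.314) and 1.49 without dox+TCP replicate 2 (limma adjusted p = 0.181). The brighter probe, A_51_P451346 at chr13:5755138-5755197 (+), read 1.00 and 0.99 with dox+TCP, and 1.63 and -0.22 with dox. Its means were 0.99 ± 0.44 with dox+TCP (SE, n = 2, limma adjusted p = 0.201) and 0.71 ± 0.44 with dox (SE, n = 2, limma adjusted p = 0.332). The reference signal of this probe was 14516 on dox replicate 2 and 8541 to 8866 on the other 3 arrays. With dox replicate 2 left out, the dox value was 1.63, which is the ratio of the 1 dox array that remained.

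Klf10, a repressor induced by TGF-beta, was close to the reference on every array. Its only probe, at chr15:38405475-38405534 (-), had log2 ratios of 0.063 and 0.10 with dox+TCP, and -0.14 and -0.16 with dox. The means of 0.083 ± 0.15 with dox+TCP (SE, n = 2, limma adjusted p = 0.732) and -0.15 ± 0.15 with dox (SE, n = 2, limma adjusted p = 0.530) did not pass. The 95% intervals run from -0.31 to 0.48 with dox+TCP and from -0.55 to 0.24 with dox.

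Klf9, which answers to hormones and to the circadian clock, was split between its probes. Probe A_52_P675996, the dimmer of the pair averaged over both channels, lies at chr19:22862974-22863033 (+). Its log2 ratios were 1.81 and 1.35 with dox+TCP, and 0.72 and 1.61 with dox. The treated signals were 9044 and 7958 with dox+TCP and 3726 and 9096 with dox, against reference signals of 2582 and 3129 on the dox+TCP arrays and 2269 and 2978 on the dox arrays. All 4 ratios are positive, with dox replicate 1 the lowest. The dox+TCP mean of 1.58 ± 0.27 (SE, n = 2) was 2.98-fold higher than the reference (limma adjusted p = 0.0286), and the dox mean of 1.16 ± 0.27 missed the threshold (SE, n = 2, limma adjusted p = 0.0536). The dox value was 1.61 without dox replicate 1, which is the ratio of the 1 dox array that remained. The dox+TCP value was 1.35 without dox+TCP replicate 1 (limma adjusted p = 0.229) and 1.81 without dox+TCP replicate 2 (limma adjusted p = 0.128), past the threshold in neither. The brighter probe, A_51_P412200 at chr19:22863775-22863834 (+), read -0.38 and -0.45 with dox+TCP, and -0.47 and 0.17 with dox. Its means of -0.41 ± 0.21 with dox+TCP (SE, n = 2, limma adjusted p = 0.252) and -0.15 ± 0.21 with dox (SE, n = 2, limma adjusted p = 0.657) did not pass.

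Klf3, Klf7 and Klf13 had no probe past the threshold in either comparison with the reference, in the fit as reported. Klf3, the CtBP-binding repressor, had a probe (A_51_P492640, spanning chr5:64177140-64177720 (+)) that read -0.072 and 0.50 with dox+TCP, and -1.40 and 0.29 with dox. Dox replicate 1 stood alone there, with a Cy5 signal of 1895 against 4180 to 4829 in the other 3 treated samples. The second Klf3 probe, at chr5:64184115-64184174 (+), averaged 0.18 ± 0.23 with dox+TCP and 0.19 ± 0.23 with dox (SE, n = 2 each). Klf13, a factor studied mainly in T cells and heart, was positive at both probes on all 4 arrays, between 0.25 and 1.04. Its brighter probe, spanning chr7:59641560-59687788 (-), averaged 0.63 ± 0.24 with dox+TCP (SE, n = 2, limma adjusted p = 0.149) and 0.67 ± 0.24 with dox (SE, n = 2, limma adjusted p = 0.132). With median centring the dox value of this probe was 1.03 (limma adjusted p = 0.0304), and a replicate block also called it. The dim Klf13 probe, spanning chr7:59641606-59674537 (-), averaged 0.26 ± 0.15 with dox+TCP and 0.37 ± 0.15 with dox (SE, n = 2 each). Klf7, known from neuronal outgrowth, stayed between -0.56 and 0.30 over its 2 probes and all arrays. The Klf7 probe at chr1:64319432-64319491 (-) averaged -0.058 ± 0.18 with dox+TCP and 0.099 ± 0.18 with dox, and the one at chr1:64274226-64274285 (-) averaged -0.34 ± 0.23 with dox+TCP and -0.18 ± 0.23 with dox (SE, n = 2 each). A value that did not pass here does not show that the gene was unchanged, since the 95% intervals of the 16 probes in either comparison with the reference were 0.79 to 2.30 wide on the log2 scale.

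The comparison of dox+TCP with dox asks what TCP changed while Oct4 was off. Of the 31114 probes, limma called 0, and 1068 had an unadjusted p under 0.05 (3.43%). Among the 16 Kruppel-like factor probes 0 passed, and all had a limma adjusted p of 0.9998. The only one at an unadjusted p under 0.05 was the brighter Klf2 probe, A_52_P442031. Its difference, dox+TCP minus dox, was 0.96 ± 0.26 (SE, n = 2 per group, 95% interval 0.30 to 1.62, limma unadjusted p = 0.0139), and it was 0.65 between the replicate 1 arrays, on the same slide, and 1.26 between the replicate 2 arrays. The downstream Klf2 probe went the other way, by -0.65 ± 0.29 (SE, n = 2 per group, 95% interval -1.40 to 0.11), with -0.58 on the shared slide and -0.71 between the replicate 2 arrays.

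**Figure D3:**
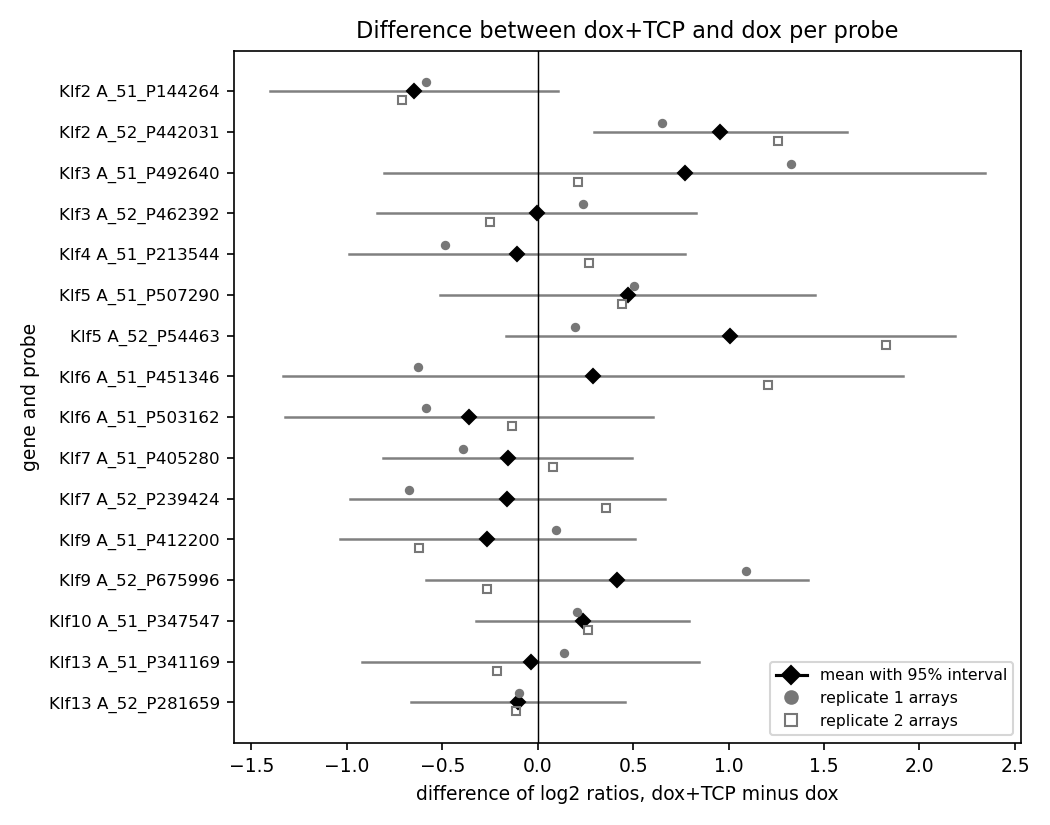
Difference of log2 ratios, dox+TCP minus dox, for each Kruppel-like factor probe: diamonds are the limma estimates with 95% intervals, circles the difference between replicate 1 arrays and squares that between replicate 2 arrays. At Klf5 A_52_P54463 the dox replicate 2 signal behind the square was not well above background. The interval of Klf2 A_52_P442031 (0.30 to 1.62) lies above 0 and the other 15 cross it, before adjustment over all probes.

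In the treated channel alone, the log2 signal at the brighter Klf2 probe was 0.37 higher in dox+TCP than in dox cells for replicate 1 and 0.71 higher for replicate 2, and the reference signal was 0.28 lower and 0.55 lower on the same pairs of arrays. Part of the ratio's difference thus lies in the reference channel. At the downstream probe the treated signal differed by -0.60 and -0.79 and the reference by -0.017 and -0.078.

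Both dox+TCP ratios lay above both dox ratios for 3 of the 16 probes (13.3% of all probes) and below both for 2 of the 16 (16.7% of all probes). The 3 higher ones were the brighter Klf2 probe, the dim Klf5 probe and Klf10, and the 2 lower ones were the downstream Klf2 probe and the dim Klf13 probe. For the dim Klf5 probe the difference was 1.01 ± 0.45 (SE, n = 2 per group, 95% interval -0.17 to 2.18), with 0.20 on the shared slide; the treated signal of dox replicate 2 was not well above background there, so its ratio is no exact value, and the mean difference and the probe's place among the 3 rest on it. The brighter Klf5 probe differed by 0.47 ± 0.38 (SE, n = 2 per group, 95% interval -0.51 to 1.45), at 0.50 on the shared slide and 0.44 between the replicate 2 arrays. Klf4 differed by -0.11 ± 0.34 (SE, n = 2 per group, 95% interval -0.99 to 0.77), at -0.49 on the shared slide and 0.27 between the replicate 2 arrays. These intervals leave room for a change by TCP in either direction.

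The disagreement between Klf2 probes was set against that of other genes. At Klf2 the downstream probe minus the other gave -4.54 and -4.52 with dox+TCP, and -3.31 and -2.55 with dox, a mean of -3.73 on the log2 scale. The gap is negative on all 4 arrays, and the dox+TCP gaps are the wider ones. Of 4785 genes with 2 tested probes and ratios on all 4 arrays, 6 (0.125%), Klf2 included, had a mean gap at least as large, whatever its sign, and the median gap was 0.26. The Klf2 probes lie 1376 bases apart.

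**Figure D4:**
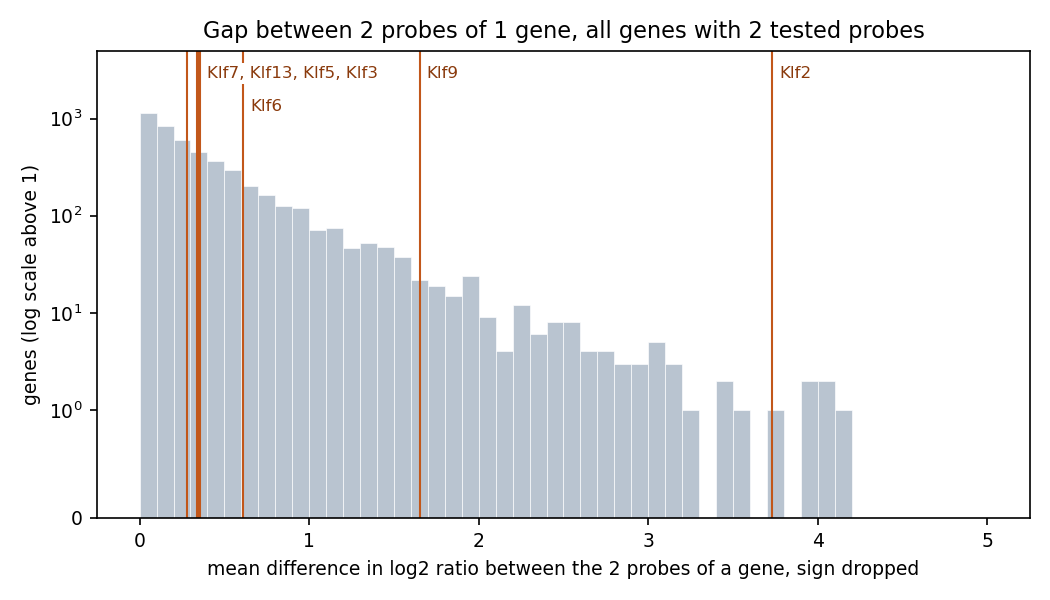
Number of genes (log scale above 1) by the mean difference in log2 ratio between their 2 tested probes, sign dropped, over 4785 genes; vertical lines mark the 7 Kruppel-like factor genes with 2 probes. Klf2 (3.73) lies at the far end and Klf9 (1.65) in the tail, while the other 5 lie between 0.28 and 0.61.

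Klf9 had the next largest gap among the members. Its downstream probe minus the other, 801 bases away, gave -2.19 and -1.79 with dox+TCP, and -1.19 and -1.44 with dox, a mean of -1.65, and 152 genes (3.18%) had a gap that large. With the sign dropped, the other members sat nearer the median: Klf6 at 0.61 (22.4% of genes had a gap at least as large), Klf3 at 0.36 (40.6%), Klf5 at 0.34 (41.9%), Klf13 at 0.34 (42.3%) and Klf7 at 0.28 (48.0%). The downstream probe was the lower one in 4 of the 7 genes, and the gap had 1 sign on all 4 arrays in 4 of the 7 (Klf2, Klf6, Klf7 and Klf9). For Klf5 and Klf13 the matches of the probes overlap, so which probe is downstream is not clear there. Per the labels, cDNA synthesis was primed with oligo-dT. Whether the probes of a gene detect different transcripts was not tested.

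Genes with ratios most like those of the self-renewal members over the 4 arrays were found among 16100 named genes, by Euclidean distance on the log2 scale, as a description. For the brighter Klf2 probe they were Tfap2e (distance 0.096), Slc24a1 (0.18) and Btbd1 (0.26). Klf4 was closest to Rerg (0.27), Srst (0.28) and Mest (0.34), and Klf5 to Krt17 (0.10), Defcr4 (0.12) and Gng13 (0.17). For the downstream Klf2 probe, added after its values were seen, they were Otx2 (0.32), Ddx58 (0.40) and Lratd1 (0.44).

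Relatives and partners of the family were read at the brightest tested probe of each gene. The counts of each list below stand beside the shares over all tested probes, 7.14% higher and 7.51% lower with dox+TCP. With dox the shares were 7.81% higher and 6.98% lower. A single gene passing in a list is not read as a result about the list. Of 8 other Kruppel-like family genes, 1 rose and 1 fell with dox+TCP, and 1 rose and 1 fell with dox. Klf11, a TGF-beta-induced relative of Klf10, was the one that rose, by 1.04 with dox+TCP (limma adjusted p = 0.0261) and 0.96 with dox (limma adjusted p = 0.0297). Klf8, a CtBP-binding repressor like Klf3, averaged -1.65 with dox+TCP (limma adjusted p = 0.0365) and -1.34 with dox (limma adjusted p = 0.0568). Klf12, another such repressor, averaged -0.80 with dox+TCP (limma adjusted p = 0.182) and -1.57 with dox (limma adjusted p = 0.0440). The list's median was 0.12 with dox+TCP and -0.060 with dox, against 0.093 with dox+TCP and 0.085 with dox over all probes.

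Among the related SP factors, which share the zinc-finger type, 7 of 9 were measured and 1 fell in each comparison. That gene was Sp5, a target of Wnt signalling, at -2.71 with dox+TCP (limma adjusted p = 0.0078) and -2.40 with dox (limma adjusted p = 0.0082). The medians of the 7 were 0.19 with dox+TCP and -0.11 with dox.

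Of 14 cofactors of the family, 1 rose and 4 fell with dox+TCP, and 1 rose and 3 fell with dox. Fhl1, a LIM-domain protein, rose by 2.39 with dox+TCP and 2.21 with dox (limma adjusted p = 0.0126 with dox+TCP and 0.0132 with dox). Ctbp2, the corepressor that Klf3 binds, was at -1.53 with dox+TCP and -1.68 with dox (limma adjusted p = 0.0228 with dox+TCP and 0.0179 with dox), and Sap30, a subunit of the Sin3 deacetylase complex, at -1.28 with dox+TCP and -1.46 with dox (limma adjusted p = 0.0242 with dox+TCP and 0.0177 with dox). The list's median was -0.32 with dox+TCP and -0.049 with dox.

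The list of LIF and Stat3 pathway genes holds Stat3 targets as well as genes upstream of Klf4. Of its 11 genes 10 were measured, of which 1 rose and 2 fell with dox+TCP, and 0 rose and 3 fell with dox. Gbx2, a homeobox target of Stat3, averaged -3.51 with dox+TCP and -3.60 with dox (limma adjusted p = 0.0076 with dox+TCP and 0.0065 with dox). The receptor subunit Lifr averaged -0.89 with dox+TCP and -1.01 with dox (limma adjusted p = 0.0496 with dox+TCP and 0.0375 with dox). Tfcp2l1, a self-renewal factor and Stat3 target, averaged 1.05 with dox+TCP (limma adjusted p = 0.0282) and 0.30 with dox (limma adjusted p = 0.317). The transcription factor Stat3 itself averaged -0.39 with dox+TCP and -0.52 with dox and did not pass in either. The list's median was -0.32 with dox+TCP and -0.51 with dox.

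Of 12 measured genes of the pluripotency network that share binding sites with Klf2, Klf4 and Klf5, 9 fell with dox+TCP and 10 with dox, and 0 rose in either. Nr0b1, a nuclear receptor corepressor of Oct4, averaged -5.72 with dox+TCP and -6.25 with dox (limma adjusted p = 0.0066 with dox+TCP and 0.0047 with dox), and Tdgf1, a Nodal coreceptor, averaged -3.68 with dox+TCP and -3.54 with dox (limma adjusted p = 0.0066 with dox+TCP and 0.0050 with dox). The list's median was -2.04 with dox+TCP and -2.60 with dox. Among 12 trophoblast genes, of the lineage in which Klf5 is also active, 0 passed with dox+TCP, and 2 rose and 0 fell with dox. Gata2 averaged 1.74 with dox+TCP and 2.55 with dox (limma adjusted p = 0.0706 with dox+TCP and 0.0307 with dox), and Gata3 averaged 1.35 with dox+TCP and 1.64 with dox (limma adjusted p = 0.0503 with dox+TCP and 0.0324 with dox). That list's median was 1.06 with dox+TCP and 1.60 with dox, and its sum in the reference differed between the replicate numbers as given above.

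Of 12 fibroblast markers of feeder cells, 0 rose and 1 fell with dox+TCP, and 0 rose and 2 fell with dox, with medians of -0.11 with dox+TCP and -0.22 with dox. Thy1 averaged -1.20 with dox+TCP and -2.10 with dox (limma adjusted p = 0.0276 with dox+TCP and 0.0099 with dox), and S100a4 averaged -0.45 with dox+TCP and -1.39 with dox (limma adjusted p = 0.298 with dox+TCP and 0.0324 with dox). In dox+TCP against dox, limma called 0 genes of every list described here.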

How the data were processed

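Total RNA extracted with Trizol was labelled with Agilent's QuickAmp kit from an oligo-dT primer, 1 µg per sample, per the labels' protocols. Signals are intensities on a linear scale made with Agilent Feature Extraction 10.1.1.1, per the file headers and the submitters' processing notes. Per the file headers, the same program subtracted background, corrected the dyes by a linear and a lowess method and wrote log10 ratios of Cy5 over Cy3. The deposited series matrix holds log10 values within 0.005 of these ratios, so its scale and direction are settled; its column medians were 0, 0.0182, 0.000143 and 0. Each array holds 45018 spots, 1639 of them controls, and the number of arrays limits the precision. Probe positions are the authors' on mm7; exon annotation of that build was not used here.

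Ratios were turned to log2 and spots with outlier marks (119 to 176 per array) set to missing. Tested probes exceeded background clearly in Cy5 on the 2 arrays of either group, or in Cy3 on all 4 arrays. limma 3.58.1 in R 4.3.3 estimated 1 mean for each group from the 4 arrays together (2 residual and 2.92 prior degrees of freedom), with Benjamini-Hochberg adjustment over 31114 probes. The fit was also tried on simulated arrays that vary independently, which does not cover the shared slide or reference of these arrays. Intervals are 95%. A RefSeq table updated the symbols of 22951 probes through their accession, of 6659 through the symbol and of 3109 through a synonym; 8455 probes keep the files' own name. Promoter windows come from RefSeq on GRCm38.p6, where 7 of the 9 members matched; Klf5 and Klf10 are named only.

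Every probe of every member is reported. Of each list, up to 3 genes with the smallest adjusted p and always Pou5f1 are named, and for Klf2, Klf4 and Klf5 the 3 genes nearest in ratio. Stat3, Krt8, Krt18, Acta2, Col1a1, Zfp42 and Fbxo15 were named after their values were seen. The members, lists and tests were chosen with earlier results of these data known. Alternatives covered background correction, dye normalization, the filter, outlier marks, left-out replicates, the replicate block, scan day, the spread estimate and the choice of probe.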

Additional observations from a re-analysis of the deposited data

Results flagged for a closer look

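Klf10 was flagged because its ratios had opposite signs in the groups: above 0 on both dox+TCP arrays (0.063 and 0.10) and below 0 on both dox arrays (-0.14 and -0.16). Both dox+TCP ratios lay above both dox ratios for 13.3% of all probes. Under median centring the dox value of Klf10 was 0.31, so the opposite signs depend on the dye normalization. The difference, dox+TCP minus dox, was 0.24 ± 0.22 (SE, n = 2 per group, 95% interval -0.32 to 0.79). limma's test of that difference gave an unadjusted p of 0.326 and an adjusted p of 0.9998.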

How the results depend on the processing

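Over the 16 probes, 3 comparisons and the alternatives, 824 values were recomputed: 726 kept their direction and side of the threshold, 46 lost a call, 14 gained one and 38 changed sign. Only the 6 values called for dox+TCP and the 5 called for dox could lose a call, so all 46 losses fall on these. The 726 include values that passed neither before nor after. Losses per called probe ran from 2 of 18 alternatives (Klf4 for dox) to 9 of 18 (Klf5 A_51_P507290 for dox+TCP). dox+TCP against dox gave 0 calls by limma in every setting run. For dox+TCP against the reference, 4561 probes were called, and 0 with backgrounds as read (2361 at an unadjusted p under 0.05), 0 with no filter on dim probes (10993 unadjusted), 8610 with the replicate block, 311 with a scan day block, 8078 with only the arrays of the group, and 0 to 8078 with a replicate left out. For dox, 4602 were called, and 0 with backgrounds as read (2252 unadjusted), 8259 with median centring, 0 with no filter (11015 unadjusted), 8847 with the replicate block, 2653 with a scan day block, 2653 with only the arrays of the group, and 2333 to 6028 with a replicate left out. Without a filter, dim spots with ratios of exactly 0 enter the fit; an alternative that leaves those ratios out, chosen after seeing the data, called 3588 for dox. Of the 16 probes, the 6 called for dox+TCP became 0 with backgrounds as read, 0 with no filter, 3 with no filter and ratios of 0 left out, 3 of 9 genes at the brightest probe, and 0 to 7 with a replicate left out; the 5 called for dox became 0 with backgrounds as read, 8 with median centring, 0 with no filter and 2 of 9 genes at the brightest probe. With a replicate left out, the lone array of a group is assumed to vary like the other group. The cause of these changes was not tested.

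No label ties equal replicate numbers to a shared batch, but the replicate 1 arrays share a slide and the reference differs with the number as described above; deviations of dox and dox+TCP replicate 1 from their group means correlated at 0.428. Slide as a block left no residual degrees of freedom and was not run; scan day is read from the file headers, and since only dox+TCP replicate 2 lies on the second day, its block is the fit without that array and called 2 of the 16 probes for dox+TCP. The replicate block called 8 of the 16 probes for dox+TCP and 7 for dox. Those gained were Klf5 A_52_P54463 for dox+TCP (-1.34, limma adjusted p = 0.0145), Klf13 A_51_P341169 for dox+TCP (0.63, limma adjusted p = 0.0435) and dox (0.67, limma adjusted p = 0.0356), and Klf9 A_52_P675996 for dox (1.16, limma adjusted p = 0.0165).

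Sign changes were in values that had not passed. For dox+TCP, Klf7 A_51_P405280 was 0.084 with backgrounds as read and 0.32 with median centring. For dox, the same probe was -0.12 with backgrounds as read and -0.0028 with no background subtraction, and median centring gave 0.14 for Klf7 A_52_P239424, 0.27 for Klf9 A_51_P412200 and 0.31 for Klf10. For dox+TCP minus dox, Klf3 A_52_P462392 was 0.064 with normexp and loess and 0.056 with no background subtraction, Klf13 A_51_P341169 was 0.075, 0.072 and 0.00051 with those and with backgrounds as read, and Klf13 A_52_P281659 was 0.0043 with no background subtraction. With backgrounds as read it was 0.19 for Klf6 A_51_P503162, 0.20 for Klf7 A_51_P405280 and 0.20 for Klf7 A_52_P239424. With a replicate left out, some ranges crossed 0: Klf3 A_51_P492640 from -0.072 to 0.50 for dox+TCP; Klf2 A_52_P442031 from -0.12 to 0.14, Klf3 A_51_P492640 from -1.40 to 0.29, Klf3 A_52_P462392 from -0.17 to 0.55, Klf6 A_51_P451346 from -0.22 to 1.63, Klf7 A_51_P405280 from -0.11 to 0.30, Klf7 A_52_P239424 from -0.48 to 0.12 and Klf9 A_51_P412200 from -0.47 to 0.17 for dox. For dox+TCP minus dox the ranges that crossed 0 were Klf3 A_51_P492640 from -0.078 to 1.62, Klf3 A_52_P462392 from -0.37 to 0.35, Klf4 A_51_P213544 from -0.52 to 0.30, Klf6 A_51_P451346 from -0.64 to 1.22 and Klf6 A_51_P503162 from -0.79 to 0.072. Further ones were Klf7 A_51_P405280 from -0.36 to 0.048, Klf7 A_52_P239424 from -0.46 to 0.14, Klf9 A_51_P412200 from -0.59 to 0.061, Klf9 A_52_P675996 from -0.033 to 0.86 and Klf13 A_51_P341169 from -0.41 to 0.33.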

Other observations

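Early-response genes, the class to which Klf6 and Klf10 belong, moved both ways: of 14 measured, 2 rose and 4 fell with dox+TCP, and 3 rose and 3 fell with dox. Over all probes, 7.14% were higher and 7.51% lower with dox+TCP, and 7.81% higher and 6.98% lower with dox. Atf3, a stress-induced factor, rose by 1.46 with dox+TCP and 1.86 with dox (limma adjusted p = 0.0126 with dox+TCP and 0.0082 with dox). Ier2 averaged -2.01 with dox+TCP and -2.04 with dox (limma adjusted p = 0.0098 with dox+TCP and 0.0087 with dox), and Egr1, a zinc-finger factor, averaged -2.97 with dox+TCP and -3.03 with dox (limma adjusted p = 0.0142 with dox+TCP and 0.0126 with dox). The median was 0.17 with dox+TCP and 0.21 with dox.

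The shares over all probes given above also apply to the lists that follow. The list set beside Klf9 holds nuclear receptors as well as hormone-induced and circadian genes, and shared regulation with Klf9 was not tested. Of its 10 measured genes, 1 rose and 0 fell in each comparison with the reference. That gene was Tsc22d3, a glucocorticoid-induced leucine zipper protein, at 2.65 with dox+TCP and 2.18 with dox (limma adjusted p = 0.0079 with dox+TCP and 0.0093 with dox). Of 12 TGF-beta response genes linked to Klf10 and Klf11, 1 rose and 0 fell with dox+TCP, and 1 rose and 1 fell with dox. Smad3, a signal transducer of the pathway, averaged 1.16 with dox+TCP and 1.54 with dox (limma adjusted p = 0.0293 with dox+TCP and 0.0160 with dox), and Skil, an inhibitor of it, averaged -0.78 with dox+TCP and -1.50 with dox (limma adjusted p = 0.160 with dox+TCP and 0.0396 with dox).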
